A study of Mus musculus with 9 samples.

Results

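The genes described here encode the subunits of the receptors for glutamate, GABA and glycine, the fast and slow transmitter receptors of the retina. They were taken by name: every protein-coding gene of the gene table whose symbol began with Gria, Grik, Grin1 to Grin3, Grm (with the exception of Grm6), Gabra, Gabrb, Gabrg, Gabrd, Gabrr, Gabbr or Glra, and Glrb. This gave 46 genes of the 55487 in the table, in 8 receptor classes: 4 AMPA, 5 kainate, 7 NMDA and 7 metabotropic glutamate receptor subunits, 13 GABA-A, 3 GABA-A rho and 2 GABA-B subunits, and 5 glycine receptor subunits. One further symbol, Grin1os, has the same beginning but is an antisense RNA and was left out. Of the 46 genes, 45 passed the filter on low counts and were tested. The gene that did not pass was Gabra6, with 1 count in 2-DG replicate 1 and 0 in the other libraries.

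The values come from RNA-seq of retinal explants of wild-type C57BL/6J mice at P28 (postnatal day 28), kept in culture for 48 h at 5 mM glucose. The paper describes a further 1 h in Krebs' Ringer solution and says that retinas for RNA-seq were processed immediately. Whether these explants had that hour is not clear from it. The 5 control explants received nothing more, and the 4 explants of the 2-DG group were cultured with 2-deoxy-D-glucose at 20 mM, a glucose analog that blocks glycolysis. Sclera and retinal pigment epithelium had been removed, so that an explant holds all neurons and the glia of the neural retina and its vessels, and no cell type was sorted. The titles call the samples biological replicates, and whether each came from a separate mouse is not given.

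In the retina, photoreceptors and bipolar cells release glutamate, and amacrine and horizontal cells release GABA or glycine. AMPA, kainate and NMDA receptors are cation channels opened by glutamate, GABA-A and glycine receptors are chloride channels, and the metabotropic glutamate and GABA-B receptors act through G proteins. Each is built from several subunits, so the makeup of a class sets the kinetics and pharmacology of the receptors that cells can assemble.

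Library totals lay between 11318087 and 51802230 estimated counts, and 3 counts, the floor used here, correspond to 0.0556 to 0.255 CPM (the counts-per-million unit, on the scaled library size). Most subunits were far above that floor, and the limit on the comparisons was the spread between libraries. In each group 1 library stood apart. In control replicate 5 and in 2-DG replicate 4 the summed CPM of the 46 genes was 273 and 555, against 1501 to 2774 in the other controls and 1855 to 2473 in the other 2-DG libraries. Control replicate 5 was the lowest control in 42 of the 45 tested genes, where 25.1% of all tested genes had their lowest control value in it. 2-DG replicate 4 was the lowest 2-DG library in 38 of the 45 (35.6% of all tested genes). Both were the lowest of their group in 38 genes (19.6% of all tested genes). The median subunit in control replicate 5 was at 14.5% of the median of the other controls, and in 2-DG replicate 4 at 19.4% of the median of the other 2-DG libraries. Over all tested genes these medians were 101% and 104%, so the receptor genes were low beside the rest of the table.

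**Figure D1:**
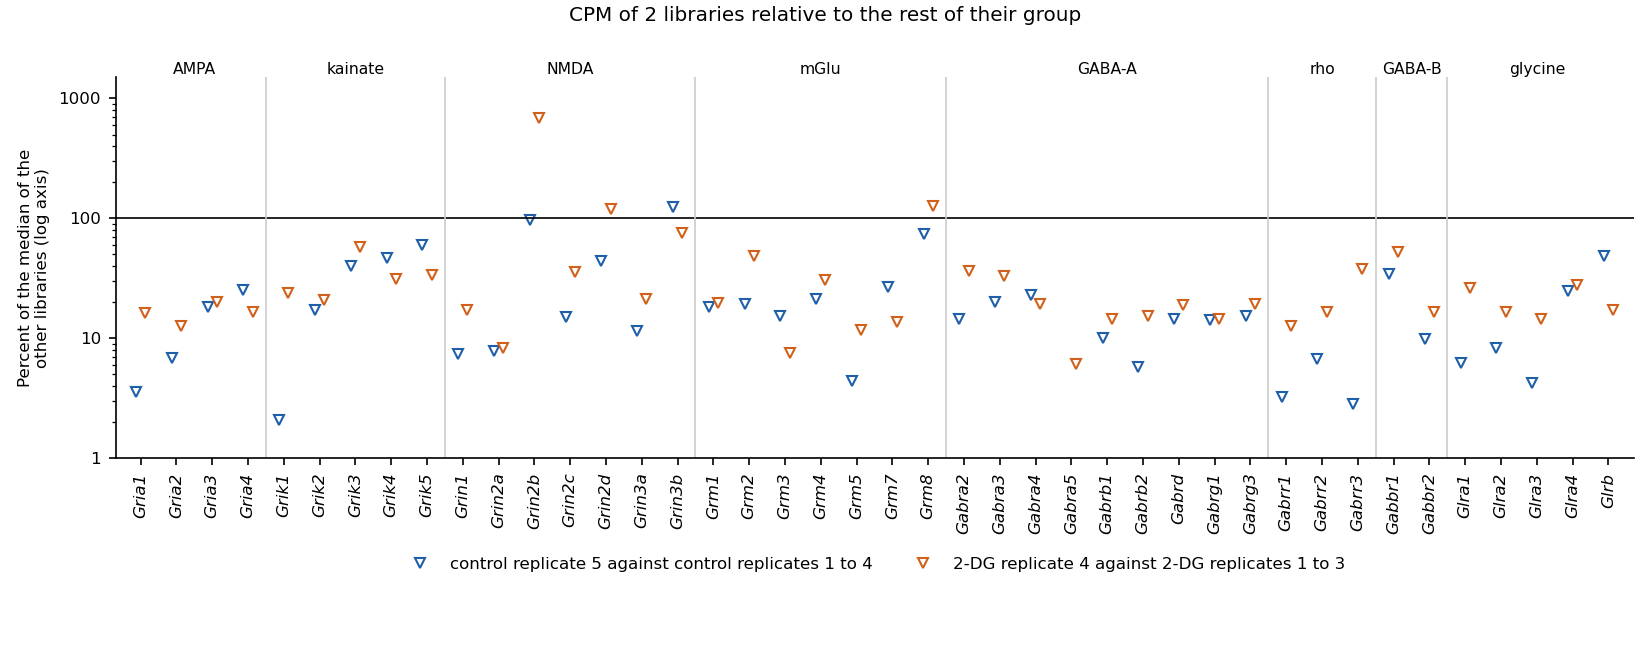
Level of 42 tested receptor subunit genes in control replicate 5 (blue) and in 2-DG replicate 4 (orange), as a percent of the median CPM of the other libraries of its group, on a log axis, by receptor class. The horizontal line is at 100 percent, and Gabra5, at 0 in control replicate 5, has no blue point. Most genes lie far below the line in both libraries, with medians over the 45 tested genes of 14.5 and 19.4 percent.

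The 7 genes for which these libraries were not both the lowest of their group were Grik3, Grin2b, Grin2c, Grin2d, Grin3b, Grm2 and Grm8. Grm8, a presynaptic metabotropic receptor, was at 12.02 CPM in control replicate 5 and 15.7 CPM in 2-DG replicate 4, within the 9.55 to 21.4 CPM of the other libraries. Markers of the retinal cell types were summed in the same way. Every marker listed was found, and none was at 0 in all libraries. The sum of the 6 bipolar cell markers was 138 CPM in control replicate 5 and 258 CPM in 2-DG replicate 4, against 382 to 1507 CPM and 1318 to 2408 CPM in the rest of each group. The 8 amacrine markers summed to 86.9 and 154 CPM in these libraries, against 194 to 701 CPM elsewhere. Of these, Gad1, Gad2, Slc32a1 and Tfap2a were below all other libraries in both. Slc6a9 (35.1 and 69.5 CPM), Chat (2.36 and 0.858 CPM) and Slc18a3 (0.743 and 0.372 CPM) were within the range of the others. The 4 horizontal cell markers summed to 31.4 and 30.9 CPM, against 83.9 to 131 CPM elsewhere. The sum of the 8 ganglion cell markers, at 338 and 432 CPM, lay within the 181 to 1228 CPM of the other libraries, but its members did not move together. Rbpms was at its highest of all libraries in these (100.6 and 88.03 CPM), while Slc17a6 (1.81 and 6.43 CPM) and Pou4f1 (1.36 and 2.49 CPM) were below all others. A sum of 7 rod markers was 7043 and 8033 CPM, above all other libraries except control replicate 2 at 18539 CPM. The sum of the 6 markers of endothelium and pericytes was highest in these libraries, at 1999 and 2503 CPM, against 326 to 1079.8 CPM elsewhere. Pecam1, Cldn5 and Cdh5 made up most of it, and Kdr, at 50.2 CPM in 2-DG replicate 4, was there at its lowest of all libraries, with Rgs5 (68.4 CPM) and Pdgfrb (53.7 CPM) within the range of the others. In whole explants, fewer cells of a type and less RNA per cell cannot be told apart, and the part of cell makeup in the values below was not tested. Results are therefore given with and without control replicate 5 and 2-DG replicate 4, an alternative that was chosen after these values were seen.

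Per kilobase of exon, the GABA-A rho subunits Gabrr2 and Gabrr1 were the most abundant of the 46 genes, while the third, Gabrr3, was at 5.00 CPM per kb. These subunits form the GABA receptors (the former GABA-C type) of bipolar cell terminals. Gabrr2 had a mean of 47.0 CPM per kb over the 9 libraries and Gabrr1 42.1 CPM per kb, with the kainate subunit Grik1 at 23.4 CPM per kb, the kainate subunit Grik5 at 16.8 and the GABA-B subunit Gabbr1 at 16.4 CPM per kb. Levels varied widely between libraries, for Gabrr2 from 3.59 to 76.3 CPM per kb and for Gabrr1 from 1.61 to 69.1 CPM per kb. The order of these genes was not tested. The AMPA subunits Gria1 and Gria2 had means of 13.7 and 10.7 CPM per kb. The NMDA class was low, with the obligatory subunit Grin1 at 5.12 CPM per kb. Gabra5 was the lowest tested gene, at 0.207 CPM per kb.

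**Figure D2:**
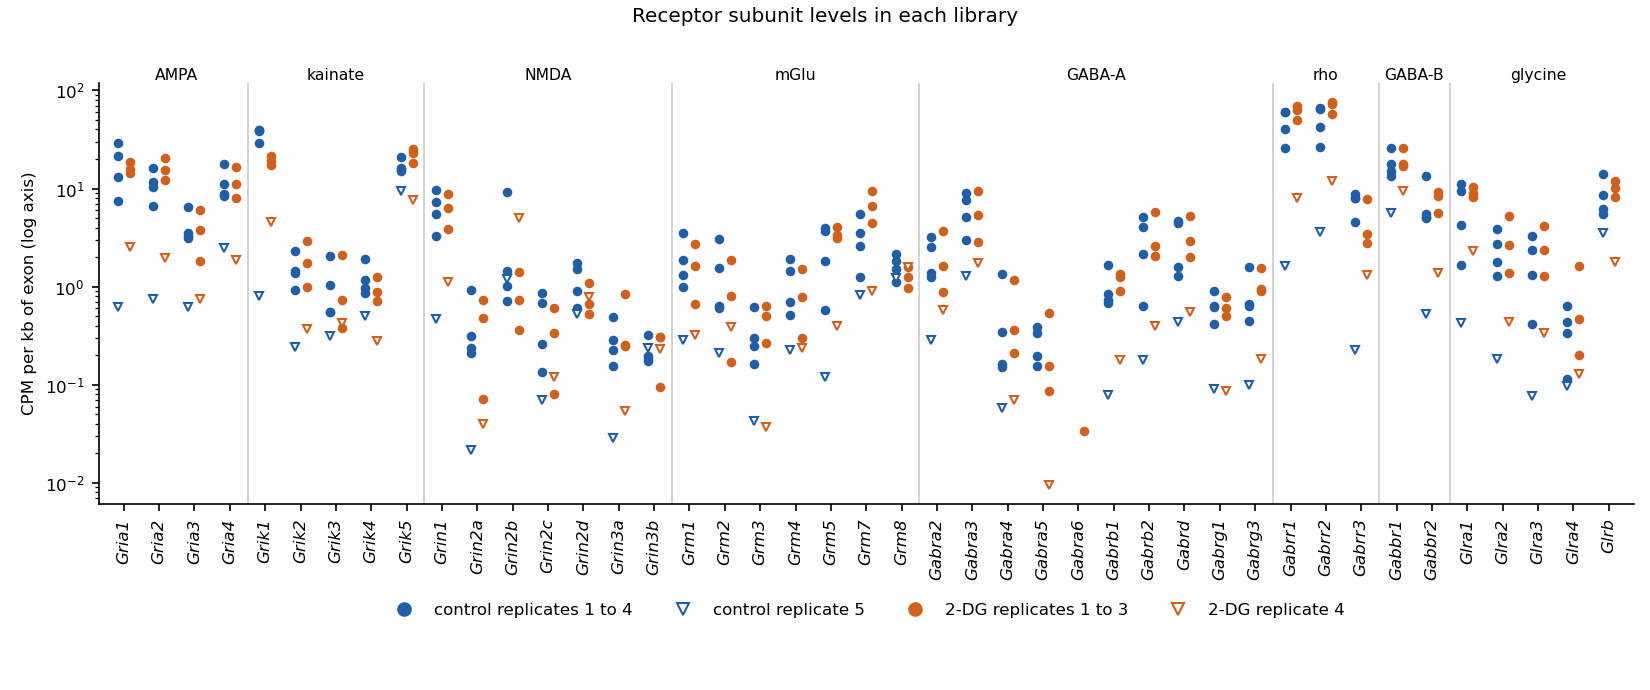
Level of 43 receptor subunit genes in each library, in CPM per kb of exon on a log axis, by receptor class, with controls in blue and 2-DG in orange. Open triangles mark control replicate 5 and 2-DG replicate 4, which lie below the filled points for most genes, and libraries at 0 have no point.

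Across the whole set, 2-DG and control explants were not separated. None of the 45 genes passed an adjusted p of 0.05, and none had an unadjusted p under 0.05, where 7.25% of the 21049 genes tested did and 0 passed after adjustment (edgeR's quasi-likelihood test, Benjamini-Hochberg over all genes). No subunit had groups that did not overlap (2.93% of all tested genes). The log2 fold change was above 0 for 26 genes and below 0 for 19, with a median of 0.09 beside −0.01 over all genes tested. This balance turned with the fit. With the replicate number as a block, 5 were above 0 and 40 below (median −0.35). It also turned with single libraries, to 15 above and 30 below without control replicate 5 (median −0.16). Without 2-DG replicate 3 it was 9 above and 36 below (median −0.36). It was 36 above and 9 below without 2-DG replicate 4 and 37 above and 8 below without control replicate 1. DESeq2 also had 0 of the 45 under either threshold, where 10.4% of all genes were under the unadjusted and 1.36% under the adjusted one. limma-voom with quality weights had 2 (Grik5 and Grm7) with an unadjusted p under 0.05, where 26.0% of all genes did, and 0 after adjustment, where 5.81% did. Standard errors were large, from 0.28 to 1.06 on the log2 scale with a median of 0.73. Without control replicate 5 and 2-DG replicate 4 the median standard error was 0.45, 29 genes were above 0 and 16 below, and 2 genes (Grik1 and Grm7) had an unadjusted p under 0.05, where 9.75% of the genes tested did. None passed after adjustment.

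**Figure D3:**
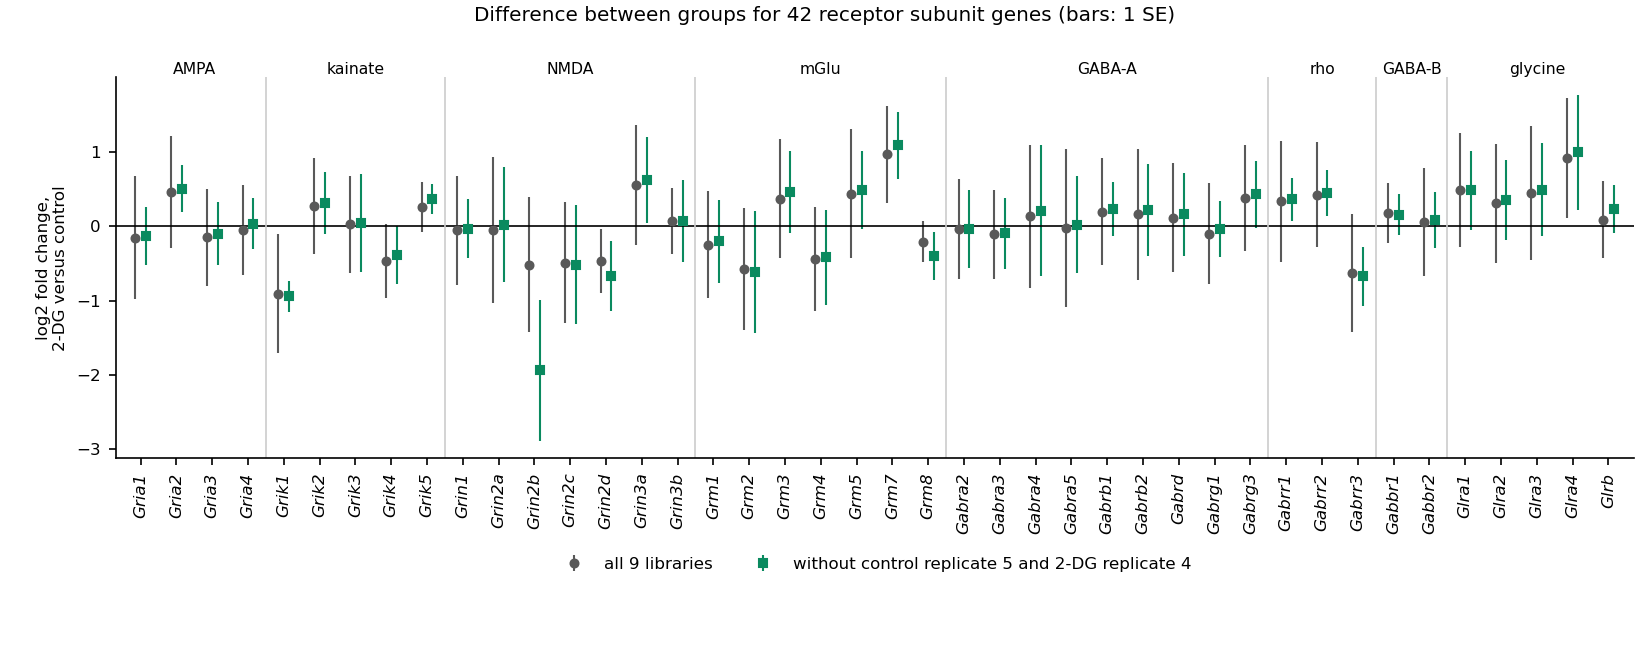
Log2 fold change of 2-DG versus control for 42 tested genes by receptor class, with bars of 1 standard error, from all 9 libraries (grey circles) and without control replicate 5 and 2-DG replicate 4 (green squares). Over all 45 tested genes the median standard error falls from 0.73 to 0.45 in the second fit, in which Grin2b, at −1.94, Grm7, at 1.08, and Grik1, at −0.94, lie farther from 0 than most, as does Glra4, at 0.99 with a standard error of 0.77.

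AMPA receptors carry the fast excitatory current in retinal neurons beyond the photoreceptor synapse with ON bipolar cells. Each of their 4 subunits has a pair of alternative exons near the end of the ligand-binding domain, flop and flip, and receptors with the flop form generally desensitize faster. The exons of Gria1 and Gria2 are printed because these bases define the forms. The annotated flop and flip transcripts also differ elsewhere, and for Gria2 they are 10371 and 4026 bases long, so that reads outside the exon bear on the shares as well. The flop exon of Gria1 lies at chr11:57309769-57309883 (plus strand) and the flip exon at chr11:57310608-57310722. Those of Gria2 lie at chr3:80691320-80691434 and chr3:80690404-80690518 (minus strand). Coordinates and sequence are of GRCm38 with GENCODE M21, and capitals mark the bases at which the members of a pair differ, 36 of 115 in both genes.
Gria1 flop: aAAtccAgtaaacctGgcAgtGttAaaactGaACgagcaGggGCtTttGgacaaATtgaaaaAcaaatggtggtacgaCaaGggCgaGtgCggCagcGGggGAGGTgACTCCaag
Gria1 flip: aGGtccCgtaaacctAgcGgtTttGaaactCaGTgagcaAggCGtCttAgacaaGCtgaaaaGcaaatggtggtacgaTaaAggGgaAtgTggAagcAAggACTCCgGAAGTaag
Gria2 flop: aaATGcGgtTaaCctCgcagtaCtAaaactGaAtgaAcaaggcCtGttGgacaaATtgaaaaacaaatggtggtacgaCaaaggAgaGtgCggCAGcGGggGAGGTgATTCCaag
Gria2 flip: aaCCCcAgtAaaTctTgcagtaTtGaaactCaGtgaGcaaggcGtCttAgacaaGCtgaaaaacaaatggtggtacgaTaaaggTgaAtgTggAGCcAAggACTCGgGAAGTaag

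Gria1, the AMPA subunit with the highest level per kb, was at 176, 45.1, 129, 79.5 and 3.72 CPM in control replicates 1 to 5 and at 113, 95.2, 87.1 and 15.5 CPM in 2-DG replicates 1 to 4. The 2-DG values lay within the range of the controls, and the groups differed by −0.16 on the log2 scale (SE 0.82, adjusted p = 0.973). Gria2, whose edited form keeps calcium out of the channel, was at 253, 163, 179.9, 103 and 11.6 CPM in controls and at 240.4, 189, 320.3 and 30.3 CPM with 2-DG. Its log2 fold change was 0.46 (SE 0.75, adjusted p = 0.902), and 2-DG replicate 3 was above every control. Gria3 and Gria4 differed by −0.15 and −0.05 on the log2 scale. The summed CPM of the class was 324 ± 207 (SD, n = 5) in controls and 363 ± 218 (SD, n = 4) with 2-DG.

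The form of each AMPA subunit was read from its transcripts. The flop share, from the counts per kb of the transcripts that hold only one of the exons, was 62.7, 69.1, 58.4, 59.9 and 76.0% for Gria1 in control replicates 1 to 5 and 63.0, 65.0, 58.5 and 66.1% with 2-DG. Flop was thus the larger form of Gria1 in all 9 libraries. For Gria2 it was 40.0, 37.6, 41.6, 49.6 and 37.1% in controls and 31.9, 55.0, 43.4 and 55.9% with 2-DG. Without the division by length the share of Gria2 was 54.7 to 76.5% in the 9 libraries, so that which form was larger turned with that division in most of them. For Gria4 flop was at 38.9% in control replicate 5 and at 59.5 to 83.1% in the others. Exact two-sided permutation tests of the 4 subunits gave unadjusted p from 0.349 (Gria2) to 1 (Gria3), and an adjusted p of 1 for each. The smallest p this design allows is 0.0159, which for a single subunit is 0.0635 after adjustment over the 4 tests, so that a difference in 1 subunit alone could not have passed. The means were 65.2 ± 7.26% and 63.1 ± 3.36% for Gria1, 41.2 ± 5.05% and 46.6 ± 11.3% for Gria2, and 68.5 ± 17.4% and 70.2 ± 9.77% for Gria4 (SD, n = 5 controls and 4 2-DG). The share of Gria3 was 0% in 5 libraries and 98.4% and 96.2% in control replicate 5 and 2-DG replicate 1, where it rested on 21 and 26 estimated counts. The division of reads between transcripts is itself an estimate, and its uncertainty was not part of the deposited values.

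**Figure D4:**
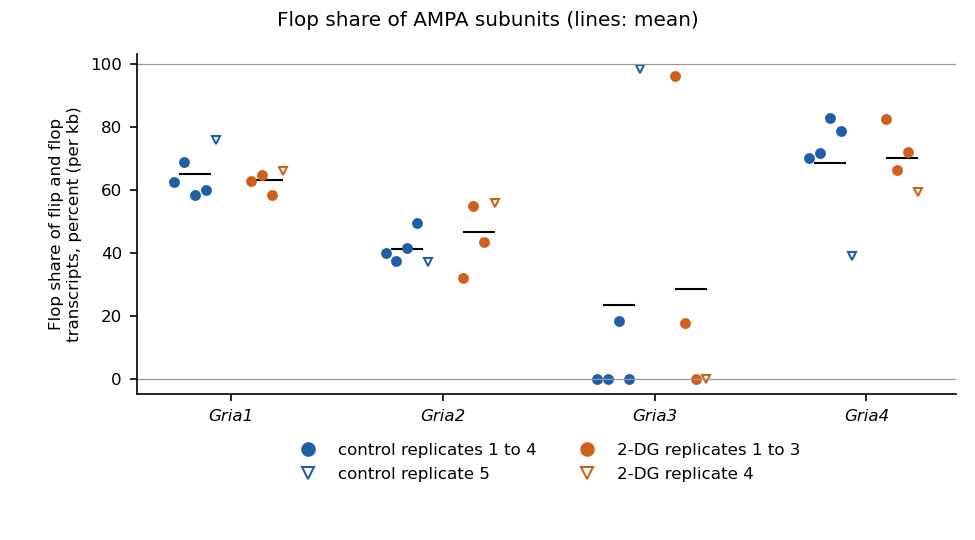
Flop share of the flip and flop transcripts of each AMPA subunit, in percent of counts per kb, in each control (blue) and 2-DG (orange) library, with open triangles for control replicate 5 and 2-DG replicate 4 and lines at the group means. Gria1 is at 58.4 percent or more in every library, and the extreme values of Gria3 rest on 21 and 26 estimated counts.

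Kainate receptors are the second class of fast glutamate channels, and in the retina Grik1 (GluK1) is known from OFF bipolar cells. Grik1, at chr16:87895900-88290265 on the minus strand, was at 267, 267, 257 and 194 CPM in control replicates 1 to 4 and 5.43 CPM in control replicate 5. In 2-DG replicates 1 to 4 it was at 118, 145, 129 and 30.9 CPM. The 3 higher 2-DG libraries all lay below the 4 higher controls, and the remaining library of each group was below all of these. With all 9 libraries the log2 fold change was −0.91 (SE 0.80, unadjusted p = 0.283, adjusted p = 0.825). Without control replicate 5 and 2-DG replicate 4, the means were 246 ± 35.2 CPM (SD, n = 4) and 130.4 ± 13.6 CPM (SD, n = 3). The log2 fold change was then −0.94 (SE 0.21, unadjusted p = 0.00147, adjusted p = 0.427).

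Grik1 was the only subunit whose groups did not overlap without these libraries, where 10.5% of the genes tested did not overlap. Leaving out control replicate 5 alone gave −1.23 (unadjusted p = 0.0141, adjusted p = 0.811), and leaving out control replicate 2 beside both low libraries gave −0.87 (unadjusted p = 0.00117, adjusted p = 0.0699). With all 9 libraries, limma-voom gave −0.40 (SE 0.67) and transcript sums −0.71 (SE 0.82). The difference did not pass the adjusted threshold in any of these fits. The bipolar marker sum overlapped between the groups without the low libraries, at 382 to 1507 CPM in controls and 1318 to 2408 CPM with 2-DG. It was above every control in 2-DG replicates 1 and 2, at 2408 and 2081 CPM. In control replicate 1, Trpm1 and Prkca were 764 and 328 of its 1503 CPM. How far these markers stand for the cells that hold Grik1 was not tested. The part of bipolar cell subtypes in the Grik1 values was not tested. Grik5, a subunit that needs a partner such as Grik1 to form channels, was at 109, 78.4, 80.9, 83.5 and 48.9 CPM in controls and 131, 118, 94.4 and 39.8 CPM with 2-DG, a log2 fold change of 0.26 (SE 0.34). The 3 other kainate subunits were below 3 CPM per kb in every library. Among the kainate subunits, Grik1 made up 59.2, 68.7, 67.4, 60.0 and 7.13% of the class per kb in controls and 37.6, 46.2, 44.4 and 34.4% with 2-DG. Grik5 was the larger share in 2-DG replicates 1, 2 and 4 and in control replicate 5, and Grik1 in control replicates 1 to 4 and 2-DG replicate 3. The share is a description of the same counts and was not tested.

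**Figure D5:**
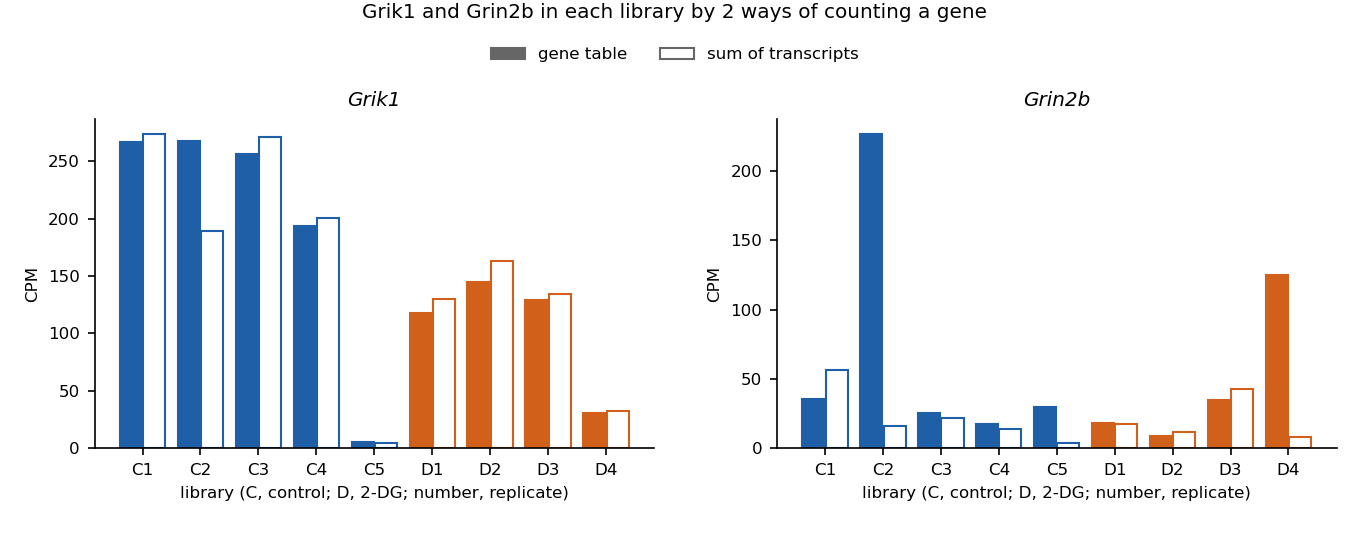
Level of Grik1 (left) and Grin2b (right) in CPM in each control (C, blue) and 2-DG (D, orange) library, from the gene table (filled bars) and from the sum of the gene's transcripts (open bars). Both measures give lower Grik1 in D1 to D3 than in C1 to C4, while for Grin2b the gene table is far above the transcript sum in C2, C5 and D4.

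NMDA receptors need the subunit Grin1 together with Grin2 or Grin3 subunits. Grin1 was at 92.7, 70.2, 53.6, 31.7 and 4.52 CPM in controls and 62.1, 37.1, 84.4 and 10.8 CPM with 2-DG, overlapping ranges that differed by −0.06 on the log2 scale (SE 0.73, adjusted p = 0.990). Grin2d had the smallest p of the class, at 11.5, 10.2, 4.05, 5.96 and 3.52 CPM in controls and 4.41, 3.48, 7.21 and 5.26 CPM with 2-DG. Its log2 fold change was −0.47 (SE 0.43, unadjusted p = 0.304, adjusted p = 0.832). Grin3b was at most 1.05 CPM in every library and shares 1059 bases of exon with Tmem259 on the opposite strand, which was at 50.8 to 102 CPM. Whether strand was used in the counting is not given in the sources used here, so the Grin3b value is uncertain. In the same way 13 of the 46 genes share exon bases with a gene on the opposite strand and 5 with a small RNA gene on their own strand.

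Grin2b stood apart from the rest of the class and was singled out after its values were seen. In the gene table it was at 35.6, 226, 25.4, 17.7 and 29.8 CPM in control replicates 1 to 5 and at 18.1, 8.99, 34.7 and 125 CPM in 2-DG replicates 1 to 4. Control replicate 2 and 2-DG replicate 4 were thus the highest of their groups. The deposited transcript table gave another order. There its 7 transcripts summed to 219 estimated counts in control replicate 2, where the gene table has 3162, to 125 against 922 in control replicate 5, and to 272 against 4362 in 2-DG replicate 4. The gene value was 14.4, 7.36 and 16.0 times the transcript sum in these libraries, and 0.642 to 1.28 times in the other 6. The 4 transcripts under 1000 bases held 65.6, 22.6 and 134 counts in the 3 libraries and at most 28.4 in the others. By transcript sums Grin2b was at 4.10 CPM in control replicate 5 and 7.86 CPM in 2-DG replicate 4, the lowest of their groups as for most subunits. Its log2 fold change was −0.52 (SE 0.91) from the gene table and −0.16 (SE 0.69) from transcript sums. It was −1.94 (SE 0.95) without both low libraries and 0.78 (SE 0.70) without control replicate 2, so that its direction turned with 1 library. Only 1 subunit differed by more than 5-fold between the tables in any library (0.6% of all genes compared), and 7 by more than 1.5-fold (11.6%). How the gene values were made from the transcripts is not given in the sources used here.

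Metabotropic glutamate receptors of the third group, Grm4, Grm7 and Grm8, are found on presynaptic terminals. Grm7, the member of the class with the highest level per kb, was at 32.4, 7.45, 20.9, 15.4 and 4.88 CPM in controls and 39.3, 26.5, 55.5 and 5.38 CPM with 2-DG. 2-DG replicates 1 and 3 were above all controls, while replicate 4 was below 4 of the 5. The log2 fold change was 0.97 (SE 0.65, unadjusted p = 0.168, adjusted p = 0.783). Without control replicate 5 and 2-DG replicate 4 it was 1.08 (SE 0.45, unadjusted p = 0.0391, adjusted p = 0.491). Transcript sums gave 0.50 (SE 0.60) with all libraries and 0.58 (SE 0.31, unadjusted p = 0.0968) without them. Grm7 is 1 of the 7 subunits on which the tables differed, with 104 counts in the gene table and 199 in the transcript table for control replicate 2 and with 2998 and 2008 for 2-DG replicate 3. The other 6 members had log2 fold changes from −0.58 (Grm2) to 0.43 (Grm5), each smaller than its standard error.

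GABA-A receptors are mostly made of α, β and γ subunits. Of the 12 subunits tested, 8 had a log2 fold change above 0 and 4 below, all between −0.11 and 0.37. This balance turned to 2 above and 10 below without control replicate 5 and without 2-DG replicate 3, and all 12 were above 0 without control replicate 1 and without 2-DG replicate 4. Gabrg3, with the smallest p of the class, gave 0.37 (SE 0.71, unadjusted p = 0.608, adjusted p = 0.916), from 1.20 to 19.0 CPM in controls and 2.20 to 18.3 CPM with 2-DG. No subunit of this class had a difference as large as its standard error.

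Of the rho subunits, which form channels alone or together, Gabrr2 was at 137, 55.6, 141, 89.1 and 7.56 CPM in controls and 161, 153, 122 and 25.1 CPM with 2-DG, and the controls stood in the same order for Gabrr1, with 3.68 to 138 CPM in controls and 18.3 to 158 CPM with 2-DG. Their log2 fold changes were 0.42 (SE 0.71, adjusted p = 0.904) and 0.33 (SE 0.81, adjusted p = 0.936). Gabrr3, the third rho subunit, was at 34.5, 34.2, 37.7, 19.6 and 0.969 CPM in controls and 11.8, 14.9, 33.1 and 5.66 CPM with 2-DG. Its log2 fold change was −0.63 (SE 0.79, unadjusted p = 0.442, adjusted p = 0.869). It was the only rho subunit below 0, and the difference between the 3 was not tested.

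GABA-B receptors need both of their subunits, Gabbr1 for binding and Gabbr2 for coupling to the G protein. Gabbr1 was at 199, 139, 116, 104 and 44.1 CPM in controls and 139, 132, 200.2 and 72.6 CPM with 2-DG. It was among the subunits least reduced in the 2 low libraries, at 34.5% and 52.4% of the others. The log2 fold change was 0.17 (SE 0.41, adjusted p = 0.933). Gabbr2 was reduced further, to 9.82% and 16.7%, so that its share of the class per kb was 8.41 and 12.9% in these libraries and 23.6 to 34.2% in the others.

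Glycine receptors join α subunits to the common subunit Glrb, which binds gephyrin. All 5 genes had log2 fold changes above 0, from 0.09 (Glrb) to 0.91 (Glra4), with a median of 0.44. Without 2-DG replicate 3, 4 of the 5 were below 0, and Glrb was also below 0 without control replicates 2 or 5 or 2-DG replicate 1. None passed, and each pair of groups overlapped. Glrb was at 65.1, 25.8, 39.7, 28.9 and 16.6 CPM in controls and 47.7, 38.1, 55.6 and 8.21 CPM with 2-DG (SE 0.52, adjusted p = 0.977). Glra4, a low gene with 0.194 to 1.29 CPM in controls, was at 0.934, 0.404, 3.26 and 0.257 CPM with 2-DG. Its log2 fold change was 0.91 (SE 0.80, unadjusted p = 0.281, adjusted p = 0.825) and turned to −0.36 without 2-DG replicate 3. Glra1, the most abundant α subunit per kb, was at 1.03 to 26.6 CPM in controls and 5.61 to 25.3 CPM with 2-DG.

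Of the 225 transcripts of the 46 genes, 124 passed the filter, and 74 had a log2 fold change above 0 and 50 below. None passed an adjusted p of 0.05 (smallest 1.00) and 2 had an unadjusted p under 0.05, where 3.45% of the 62900 transcripts tested did. Grin3b-201 was at 0.868, 0, 0.502, 0.828 and 0.893 CPM in controls and 0, 0.202, 0.129 and 0.096 CPM with 2-DG (log2 fold change −2.40, SE 0.99, unadjusted p = 0.0361), values near the floor. Grik4-202 was at 3.85, 6.91, 3.16, 4.39 and 4.14 CPM in controls and 3.17, 1.96, 2.06 and 2.30 CPM with 2-DG. Its log2 fold change was −0.92 (SE 0.39, unadjusted p = 0.0380), and only 2-DG replicate 1 overlapped the controls. Next in order was Grik1-204, a transcript annotated with a retained intron, at 33.1, 84.1, 28.7, 25.3 and 1.04 CPM in controls and 10.4, 10.7, 16.9 and 4.13 CPM with 2-DG (log2 fold change −1.70, SE 0.89, unadjusted p = 0.0833). Its adjusted p, like that of the others, was 1.00.

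The genes that work with these receptors were read from the same fit in 5 lists of 63 genes, all tested, one of them in 2 lists. None passed an adjusted p of 0.05 in edgeR or DESeq2, and 4 had an unadjusted p under 0.05 in edgeR (7.25% of all genes). With limma-voom these counts were 3 (5.81% of all genes) and 11 (26.0% of all genes), shares of the 63 below those of all genes. Among AMPA and kainate auxiliary subunits, 2 of 14 genes were above 0 and 12 below, with a median log2 fold change of −0.27 beside −0.01 over all genes, and none had an unadjusted p under 0.05. The smallest p in that list were those of Cacng4, a transmembrane AMPA receptor regulatory protein (−0.62, SE 0.42, unadjusted p = 0.167), and Shisa6 (−1.09, SE 0.81, unadjusted p = 0.204). Glutamate receptor scaffold and trafficking genes were above 0 in 12 of 18, with Nsf at 0.47 (SE 0.40) and Homer1 at 0.32 (SE 0.29). Of the 12 genes that hold or transport GABA-A and glycine receptors, 9 were above 0. In that list Gabarap, a GABA-A receptor-associated protein, was at 115, 106, 110.2, 133 and 188 CPM in controls and 164, 178, 146 and 272 CPM with 2-DG (0.54, SE 0.26, unadjusted p = 0.0612), and Kctd12, an auxiliary GABA-B protein, differed by 0.34 (SE 0.31).

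The 4 partner genes with an unadjusted p under 0.05 make, load or remove transmitter, and none passed the adjustment in edgeR. Slc1a3, the glutamate transporter of Müller glia (GLAST), was at 108, 86.1, 113, 207 and 274 CPM in controls and 39.9, 57.4, 151 and 51.6 CPM with 2-DG, a log2 fold change of −1.07 (SE 0.47, unadjusted p = 0.0453, adjusted p = 0.689). Glul, glutamine synthetase of the same cells, differed by −1.28 (SE 0.58, unadjusted p = 0.0490). Both are in the list of 7 Müller glia markers, whose sum was 1788 to 6490.1 CPM in controls and 783 to 3069.5 CPM with 2-DG, highest in control replicate 5. Glul alone was 4444 CPM of this sum in control replicate 5 and 1843 CPM in 2-DG replicate 3, so the sum is not a measure apart from it. The members did not move together. Aqp4 (67.3 CPM), Kcnj10 (56.4 CPM) and Dkk3 (635 CPM) were at their highest of all libraries in 2-DG replicate 3, and Sox9 was at its lowest there. The part of Müller glia in the values of Slc1a3 and Glul was not tested. Slc17a8, the vesicular glutamate transporter VGLUT3 of some amacrine cells, was at 41.7, 5.58, 56.0, 107 and 57.2 CPM in controls and 19.1, 26.9, 24.2 and 7.41 CPM with 2-DG (−1.46, SE 0.66, unadjusted p = 0.0484). Slc6a13, the GABA transporter GAT2, was at 1.30 to 2.23 CPM in controls and 1.44, 4.14, 18.4 and 1.12 CPM with 2-DG (1.81, SE 0.75, unadjusted p = 0.0342). Without 2-DG replicate 3, where it was highest, the log2 fold change was 0.32. In that library the markers of retinal pigment epithelium summed to 87.1 CPM, against 1.53 to 19.9 CPM in the other libraries, and their part in the result was not tested. Without control replicate 5 and 2-DG replicate 4, only Slc6a13 (unadjusted p = 0.0213) and Gabarap (unadjusted p = 0.0320) of the 63 were under 0.05 (9.75% of all genes), and the values of Slc1a3, Glul and Slc17a8 were −0.65, −0.99 and −1.18.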

How the data were processed

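RNA-seq of 9 mouse retinal explants was used, with groups and replicate numbers from the sample titles and 1 batch in the labels. Libraries were made from 4 ng of total RNA with a stranded kit and 13 cycles of PCR, and read as pairs of 101 bases. The authors deposited estimated counts per gene and per transcript, not scaled between libraries (kallisto and GRCm38, per the submitters' processing notes). Their CPM table was not used, nor was their table of 2-DG versus control, which holds fold changes, p-values and adjusted p-values for each gene. 0 columns were left without a sample.

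Estimated counts were rounded, which changed a library total by at most 0.00377%. After filterByExpr and TMM scaling, the quasi-likelihood functions glmQLFit (robust=FALSE, legacy=TRUE) and glmQLFTest were run in edgeR 4.0.16 (R 4.3.3) on all 9 libraries, with group as the only term and Benjamini-Hochberg adjustment over the 21049 genes kept. Transcripts were tested in the same way over 62900. P-values set the difference between groups against the spread between these samples, which need not each be a separate mouse. CPM were computed on the TMM-scaled size, and CPM per kb on the exon length of GENCODE M21. Alternatives were DESeq2 1.42.0, limma 3.58.1 with voom quality weights, other scalings, no filter, the replicate number as a block, and leaving out each library. Others were chosen after seeing the data. They were leaving out the low libraries, leaving out control replicate 2 as well, and using sums of transcript counts. Tables were compared after adding 1 count to both. Flop shares were compared with exact permutation tests (scipy 1.17.1), a measure chosen after seeing the data.

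The genes, lists and markers were chosen with earlier results of these data known. Genes named in each class were that with the highest CPM per kb, that with the smallest unadjusted p and any with groups not overlapping or an unadjusted p under 0.05. For each partner list they were the 2 with the smallest p, and among transcripts the 3 with the smallest p. The others, such as Grin2b, were named after their values were seen. Some genes that the rule names are not reported here. They stay in the fits and in the counts and medians over the lists, but not in the figures or marker sums.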

Additional observations from a re-analysis of the deposited data

Results flagged for a closer look

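In 52 groups of values, 1 library lay farther from the rest of its group than Dixon's 95% limit in 4. Chance gives about 1 in 20 groups for normally distributed values, so some of the 4 can be chance. The groups share libraries, and CPM and shares need not be normally distributed. Grik1 was at 5.43 CPM in control replicate 5, where the other controls were at 194 to 267 CPM. Grin2b was at 226 CPM in control replicate 2, where the other controls were at 17.7 to 35.6 CPM, and this value was not seen in the sum of its transcripts. Slc1a3 was at 151 CPM in 2-DG replicate 3, where the other 2-DG libraries were at 39.9 to 57.4 CPM. The flop share of Gria3 was 98.4% in control replicate 5, against 0 to 18.3% in the other controls, on 21 estimated counts.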

How the results depend on the processing

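The 45 subunit genes held 0 calls at an adjusted p of 0.05 in edgeR and in each of the 20 alternatives. At an unadjusted p under 0.05 the count of 0 became 2 with limma-voom, 2 without the 2 low libraries (control replicate 5 and 2-DG replicate 4), 2 without control replicate 2 as well (13.6% of all genes), 1 with transcript sums without the 2 low libraries (9.72%), and 0 to 1 when 1 library was left out (Grik1 without control replicate 5, where 5.72% of all genes did, and Grm7 without 2-DG replicate 4, where 12.9% did). For transcripts the count of 2 became 1 on library size only (3.62% of all transcripts), 10 with no filter (4.94%), 1 without the 2 low libraries (5.2%), 5 without control replicate 2 as well (7.57%), and 0 to 2 when 1 library was left out. It was 0 without control replicate 4, 2 without 2-DG replicates 3 or 4, and 1 without any of the other 6. For partner genes the count of 4 became 11 with limma-voom (26.0% of all genes), 2 without the 2 low libraries (9.75%), 6 without control replicate 2 as well (13.6%), and 0 to 5 when 1 library was left out. It was 0 without control replicate 4, 1 without control replicate 5 or 2-DG replicates 1, 2 or 4, and 2 without control replicates 2 or 3. The adjusted partner count of 0 became 3 with limma-voom, where 5.81% of all genes passed, Slc1a3 among them (−1.54, adjusted p = 0.03). The leading subunits stayed those of the report in 3 of 8 classes when levels were not divided by length, and in 7 to 8 when 1 library was left out.

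Across 478 alternatives for 25 named genes and transcripts, 449 kept the direction and the side of the threshold, and 28 turned the direction of a gene that was not called. With limma-voom these were Gria1 (0.38), Grin1 (0.44) and Kctd12 (−0.14), and Grin1 was at 0.026 from transcript sums without the low libraries. Leaving out libraries gave ranges across 0 for Gabbr1 (−0.073 to 0.43), Gabrg3 (−0.024 to 0.95), Glra4 (−0.36 to 1.35), Glrb (−0.17 to 0.43), Gria1 (−0.48 to 0.27), Grin1 (−0.46 to 0.28, and 0.057 without control replicate 2 and the low libraries), Grin2b (−1.94 to 0.78) and Kctd12 (−0.018 to 0.47). The Gria4 flop share difference became −2.16 percentage points without the low libraries. The cause of these changes was not tested.

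Whether samples with the same replicate number share an animal or a culture day is not given. Correlations of same-numbered deviations were 0.549, −0.138, 0.118 and 0.240, too few to decide this. Control replicate 5 has no partner of its number, so the replicate block also takes it out of the contrast between groups. With the replicate block, 5 subunits were above 0 and 40 below, with a median of −0.35 beside −0.05 over all genes. Under the block 2 subunits had an unadjusted p under 0.05 (Grik1, −1.41, and Gabrr3, −1.19, where 6.42% of all genes did) and 1 partner gene. In that fit Gabbr1 (−0.088), Gabrg3 (−0.062), Gabrr2 (−0.069), Glra4 (−0.044), Glrb (−0.28) and Gria2 (−0.17) were below 0. Of these, Gabbr1 and Glrb were below 0 also without control replicate 5 and with no block.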
